A study of Homo sapiens with 6 samples.

Results

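Genes of the cytosolic and mitochondrial protein-folding machinery were measured as messenger RNA in the cell line OCI-AML2, grown from a human acute myeloid leukemia and long established. The set holds 43 genes, taken by symbol: the HSP70, HSP110 and HSP90 chaperones with their J-domain, BAG and other cochaperones, the mitochondrial chaperones, the subunits of the cytosolic chaperonin, genes with an HSPB name, and the heat shock factors HSF1 and HSF2. All 43 were found among the 58233 gene identifiers of the count table, 1 of them (HSPB11, now named IFT25) by its name in GENCODE release 29. The filter on low counts left 42 of them for testing and removed HSPA1A.

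Libraries labelled IKZF1-ko came from OCI-AML2 cells in which CRISPR targeted IKZF1, the gene of the blood transcription factor Ikaros, and libraries labelled NT control came from OCI-AML2 cells with a non-targeting control, 3 of each. No drug or heat treatment is named in the labels, and both groups share the cell line and culture medium. The study asked which genes differ with loss of IKZF1. The series design speaks of 3 lines per group and the extraction protocol of triplicates, so the p-values rest on a spread among libraries that could be only technical. Extraction is described for parental and knockout cells, and whether a line is 1 clone is not stated.

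HSP70 chaperones hold and release unfolded stretches of protein in a cycle driven by ATP, in which J-domain proteins deliver the client and BAG and HSP110 proteins help to exchange the nucleotide. HSP90 then matures kinases and receptors together with cochaperones such as STIP1, AHSA1 and FKBP4, while the chaperonin, a double ring of TCP1 and CCT subunits, folds actin and tubulin. HSF1 is held inactive by chaperones and, when unfolded proteins occupy them, binds heat shock elements, repeats of the letters GAA in alternating orientation, in the promoters of chaperone genes. Leukemia cells are known to depend on these chaperones.

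Heat shock elements were searched in the promoters, because the comparison set genes that HSF1 induces against the chaperonin subunits. The RefSeq promoter table (GRCh38.p14) held 56 promoters for 39 of the 43 genes, each running from 250 bases before to 50 after a start site, and CCT6A, FKBP4, HSF1 and HSPA14 are named only. Motifs of 2 units were GAANNTTC and TTCNNGAA, which each read the same on both strands, and the motif of 3 units was GAANNTTC followed by NNGAA, searched on both strands, which contains both of them. A 2-unit motif was found in 14 of 30 promoters of HSF1-induced genes (46.7%) and in 3 of 9 promoters of chaperonin subunits (33.3%). It was found in 2 of 17 promoters of the remaining genes (11.8%) and in 13.5% of all 35116 promoters of the table. Among promoters of genes tested in the 6 libraries the share was 10.5%. Counted by gene, 13 of 18 HSF1-induced genes, 3 of 7 chaperonin subunits and 2 of 14 remaining genes had a match in some promoter. The 3-unit motif was found in 6 of 30 promoters of HSF1-induced genes (20.0%) and in 0 of 9 of chaperonin subunits. It was also found in 1 of 17 of the remaining genes, in 0.490% of all promoters and in 0.338% of those of tested genes. AHSA1, BAG3, CACYBP, HSPE1 and HSPH1 were the HSF1-induced genes in the table with no match in these windows. Each of these was called lower in the 4-library comparison below, at -0.34, -0.45, -0.20, -0.50 and -0.37 on the log2 scale respectively. DNAJB6, a remaining gene with the 3-unit motif, was not called there. A relation between matches and fold changes was not tested. A match is a description of the letters and not a measured site. Shown are the 250 bases before the start site of 5 HSF1-induced genes with matches, then of TCP1, a chaperonin subunit with a single match, and of HSPB7, the only gene of the set that passed the test upward, with none. Capitals mark every match of a 2-unit motif.
CHORDC1 (chr11:90223050-90223299, minus strand, GRCh38.p14): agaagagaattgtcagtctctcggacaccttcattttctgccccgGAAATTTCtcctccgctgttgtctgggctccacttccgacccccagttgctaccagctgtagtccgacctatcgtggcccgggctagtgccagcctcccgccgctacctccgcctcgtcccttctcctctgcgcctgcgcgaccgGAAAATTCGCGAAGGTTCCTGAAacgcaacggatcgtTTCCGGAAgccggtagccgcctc
HSPA8 (chr11:123062137-123062386, minus strand, GRCh38.p14): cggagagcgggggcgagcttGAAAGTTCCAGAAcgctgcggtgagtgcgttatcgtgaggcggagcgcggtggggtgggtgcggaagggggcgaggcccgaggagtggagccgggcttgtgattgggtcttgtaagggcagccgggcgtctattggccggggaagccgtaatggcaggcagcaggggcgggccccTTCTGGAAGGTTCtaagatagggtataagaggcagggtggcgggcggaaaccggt
HSP90AA1 (chr14:102087045-102087294, minus strand, GRCh38.p14): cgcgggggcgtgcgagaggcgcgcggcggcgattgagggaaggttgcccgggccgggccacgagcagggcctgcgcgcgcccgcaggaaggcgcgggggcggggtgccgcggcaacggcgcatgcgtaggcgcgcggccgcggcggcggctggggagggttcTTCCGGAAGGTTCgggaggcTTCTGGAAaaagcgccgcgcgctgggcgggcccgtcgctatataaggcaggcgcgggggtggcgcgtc
DNAJB1 (chr19:14518398-14518647, minus strand, GRCh38.p14): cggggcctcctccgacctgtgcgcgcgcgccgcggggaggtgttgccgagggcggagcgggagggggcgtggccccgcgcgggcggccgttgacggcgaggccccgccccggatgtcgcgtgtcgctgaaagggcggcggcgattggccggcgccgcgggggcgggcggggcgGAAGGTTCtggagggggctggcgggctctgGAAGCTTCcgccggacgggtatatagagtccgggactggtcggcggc
HSPB1 (chr7:76302423-76302672, plus strand, GRCh38.p14): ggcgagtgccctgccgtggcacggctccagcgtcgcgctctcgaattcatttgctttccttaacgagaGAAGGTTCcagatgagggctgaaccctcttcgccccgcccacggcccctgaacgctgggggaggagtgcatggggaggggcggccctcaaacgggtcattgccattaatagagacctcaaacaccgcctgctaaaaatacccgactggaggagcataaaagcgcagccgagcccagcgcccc
TCP1 (chr6:159789603-159789852, minus strand, GRCh38.p14): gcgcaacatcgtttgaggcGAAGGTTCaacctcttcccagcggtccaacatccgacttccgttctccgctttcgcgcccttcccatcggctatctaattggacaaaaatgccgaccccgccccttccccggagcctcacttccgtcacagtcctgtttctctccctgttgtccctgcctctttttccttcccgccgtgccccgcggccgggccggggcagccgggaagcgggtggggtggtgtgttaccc
HSPB7 (chr1:16018044-16018293, minus strand, GRCh38.p14): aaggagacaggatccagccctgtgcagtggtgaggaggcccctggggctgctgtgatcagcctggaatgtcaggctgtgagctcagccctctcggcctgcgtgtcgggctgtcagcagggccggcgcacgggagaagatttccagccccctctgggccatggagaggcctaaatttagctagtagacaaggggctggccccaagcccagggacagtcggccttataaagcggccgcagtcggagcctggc
CHORDC1 had 6 matches of a 2-unit motif, overlapping ones counted each, more than the other promoters shown, of which HSPA8 had 4 and HSP90AA1 had 3.

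The libraries held 15250588, 18214328 and 16751839 counts in IKZF1-ko replicates 1, 2 and 3, and 11699047, 14983528 and 11300519 in NT control replicates 1, 2 and 3. IKZF1 itself was at 420.4 to 436 CPM in the IKZF1-ko libraries and at 291 to 334 CPM in the NT control libraries, so its mRNA level does not check the labels. CPM are counts scaled to a common library size, after TMM correction of that size. On the first principal component, which held 67.6% of the variance, IKZF1-ko replicate 1 (50.1) and NT control replicate 2 (39.5) stood apart from the other 4 libraries (-29.1 to -16.3). These 2 libraries also had the highest summed level of 10 hypoxia genes, 1741 CPM in IKZF1-ko replicate 1 and 1536 CPM in NT control replicate 2 against 587 to 679.7 CPM in the other 4, and the lowest of 10 proliferation genes, 1558 and 1647 CPM against 2504 to 2819.5 CPM. The part of hypoxia or proliferation in the chaperone levels was not tested. Results are therefore given for all 6 libraries and for IKZF1-ko replicates 2 and 3 against NT control replicates 1 and 3. These 4 libraries still split by group on the same measures. First-component scores were -16.3 and -16.7 in IKZF1-ko replicates 2 and 3, and -27.5 and -29.1 in NT control replicates 1 and 3. In the same order, summed hypoxia genes were at 679.7 and 665 CPM against 598 and 587 CPM. Summed proliferation genes were at 2504 and 2517 CPM against 2757 and 2819.5 CPM. In each, IKZF1-ko lay toward the pair that stood apart, so this comparison does not remove that axis. The myeloid genes SPI1, CEBPA, LYZ, CD33 and MPO were present in every library, CD68 and ITGAM stayed under 2 CPM, and of 12 marker genes of other cell types, 10 had at most 1.06 CPM in any library, among them CD3E, HBB, EPCAM and KRT18 at 0, while PECAM1 and NKG7 passed the filter. The summed level of those 2 was 84.7 to 98.2 CPM in IKZF1-ko and 91.9 to 105 CPM in NT control.

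Levels between genes were compared as TPM, counts per annotated exon length scaled to a common total, over the 6 libraries. HSP90AB1, the constitutive cytosolic HSP90, had the highest level of the set at 5413 TPM (range 4659 to 6001), followed by HSPA8, the constitutive HSP70, at 1527 TPM (1272 to 1823) and by HSP90AA1, the inducible HSP90, at 1009 TPM (603 to 1382). The ranges of HSPA8 and HSP90AA1 overlapped. HSPD1, the mitochondrial HSP60, was at 829 TPM (687 to 978) and the small heat shock protein gene HSPB1 at 648 TPM (566 to 751). The 8 chaperonin subunits lay between 282 TPM for TCP1 and 580.3 TPM for CCT8. HSPA1B, an inducible HSP70, was at 8.76 TPM and its twin HSPA1A at 0.131 TPM, with 1, 1 and 0 counts in IKZF1-ko and 3, 1 and 1 counts in NT control replicates 1, 2 and 3. Of the 50-base windows of HSPA1A transcripts, 71.3% also occur in HSPA1B, so reads of the pair cannot be divided with certainty and the HSPA1A level may be an undercount. HSPE1, the partner of HSPD1 in the mitochondrial chaperonin, was at 18.8 to 40.4 TPM. It shares exons with HSPE1-MOB4 on its strand and with HSPD1 on the other, and its value is uncertain for that reason. All 43 genes together took 1.36%, 1.70% and 1.70% of the counts in IKZF1-ko replicates 1, 2 and 3, and 1.88%, 1.49% and 1.92% in NT control replicates 1, 2 and 3.

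**Figure D1:**
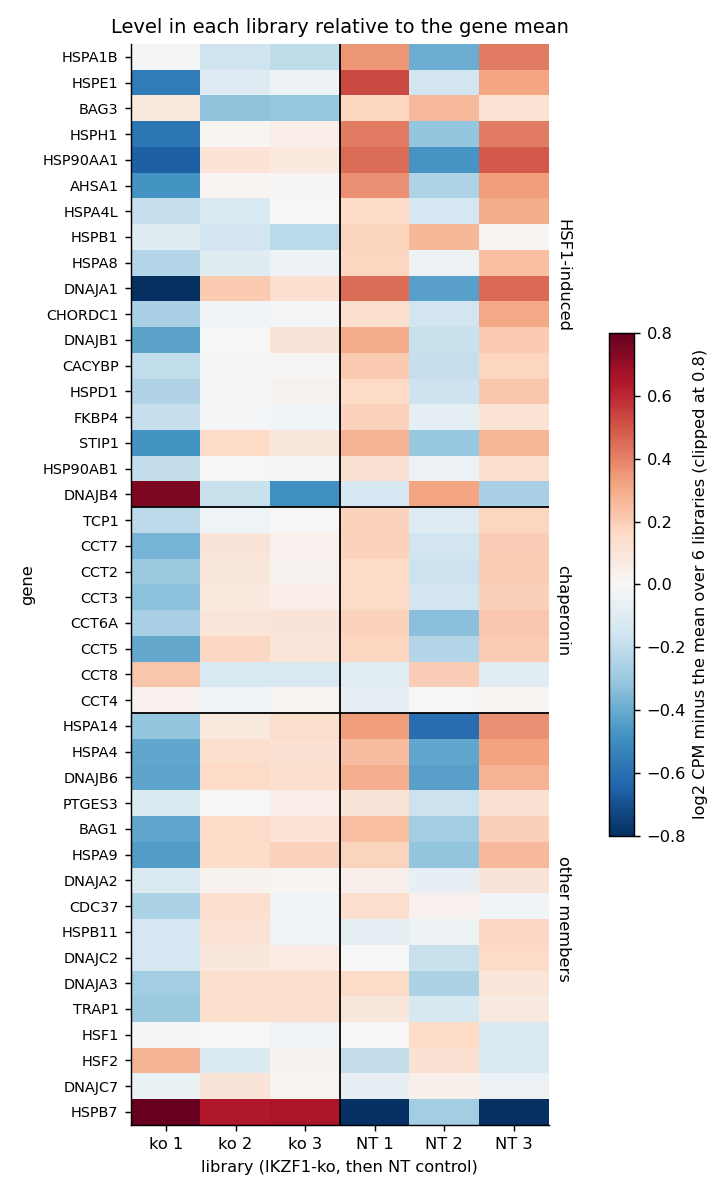
Level of the 42 tested genes in each library, as log2 CPM minus the gene's mean over the 6 libraries, with colors clipped at 0.8. Columns are IKZF1-ko (ko) and NT control (NT) replicates, and rows are ordered within HSF1-induced genes, chaperonin subunits and other members by fold change in the 4 libraries. NT control replicates 1 and 3 are above the mean in most HSF1-induced rows, and IKZF1-ko replicate 1 and NT control replicate 2 are low for many genes in all 3 blocks.

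Across all 6 libraries, no gene of the set passed the test, and the mean level of the 42 tested genes overlapped between the groups. Relative to the 6 libraries, the IKZF1-ko means on the log2 scale were -0.19, 0.04 and 0.03, in replicate order. The NT control means were 0.14, -0.15 and 0.14, so its replicate 2 lay below IKZF1-ko replicates 2 and 3. Genes of the set are not replicates, so the signs of their fold changes are given as a description only. The fold change was negative for 35 of 42 genes, with a median log2 fold change of -0.12, against 0.00 over all 13028 genes tested. Levels overlapped between the groups for all but 4 of the tested genes, and IKZF1-ko replicate 1 and NT control replicate 2 were both low for many of them. The edgeR quasi-likelihood test on group alone called 0 of 13028 genes at an adjusted p under 0.05 (0% called), while 3.50% (456 genes) reached an unadjusted p under 0.05. HSPB7 and HSPB1 were the genes of the set among these. DESeq2 on the same libraries called 58 genes higher and 13 lower, of which HSPB7 was the 1 in the set, and limma-voom called 1 gene, which was outside it.

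In the 4 libraries other than the pair that stood apart, most genes that HSF1 is known to induce were lower in IKZF1-ko, by 1.09-fold to 1.48-fold. The largest fall was that of HSPA1B, whose call was lost in DESeq2 and in thinned counts. Next were HSPE1 (1.41-fold), uncertain for its shared exons, and BAG3 (1.37-fold). Of 18 tested HSF1-induced genes, 17 fell and 0 rose, DNAJB4 being the exception. Chaperonin subunits fell in 3 of 8 cases, by 1.09-fold to 1.15-fold. Of the 16 remaining genes 1 fell, HSPA4, and 1 rose, HSPB7. These calls are from edgeR's quasi-likelihood test on IKZF1-ko replicates 2 and 3 against NT control replicates 1 and 3, which called 919 of 12951 genes lower (7.10%) and 989 higher (7.64%), 14.7% in either direction. Of the whole set, 21 genes were called lower. The share called lower was 94.4% of the HSF1-induced genes, 37.5% of the chaperonin subunits and 6.25% of the remaining genes. The HSF1-induced list and the division into lists were made when it was known that heat shock genes were lower in these libraries, so the count is not independent evidence of the direction. Other lists moved in the same 4 libraries: 6 of 10 proliferation genes were called lower and 0 higher (all 10 negative, median log2 fold change -0.16), among them PCNA at -0.33 and CCNB1 at -0.29, and 3 of 9 tested hypoxia genes were called higher, VEGFA, PFKFB4 and NDRG1, and 0 lower. Their part in the chaperone differences was not tested. Of 6 tested myeloid markers, LYZ was called lower and CSF3R higher. Both IKZF1-ko libraries of this comparison were deeper than both NT control libraries. With all libraries thinned to the lowest total, 20 genes of the set were called lower, 16 of them HSF1-induced. Without NT control replicate 1 there were 12, of which 10 were HSF1-induced, and in the other leave-one-out fits 14 to 19. HSPA4L, HSPA8, HSPD1, HSPH1, HSP90AA1, HSPB1, DNAJA1, BAG3, AHSA1 and TCP1 were the 10 genes called lower in all 4 leave-one-out fits, and 11 lost the call in at least 1 of them. Each such fit has an arm of 1 library, assumed to vary like the 2 of the other group, and the libraries of each group were close to each other, so these fits say little on stability. Without NT control replicate 1, HSP90AB1, STIP1, CACYBP and FKBP4 were among those not called. Without NT control replicate 3, HSP90AB1, STIP1, CHORDC1 and HSPA4 were, and STIP1 and HSPA4 also without IKZF1-ko replicate 3. In bulk RNA, fewer cells with a transcript and less of it per cell cannot be told apart.

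When all 6 libraries were fitted with a term for the library set, the pair that stood apart against the other 4, 16 genes of the set were called lower and 1 higher, and 862 of 13028 genes (6.62%) were lower and 903 (6.93%) higher over all, 13.5% in either direction. Of those 16, 14 were HSF1-induced and 2 chaperonin subunits, TCP1 and CCT7. All 16 were also called lower in the 4 libraries, which are part of this fit, so the overlap is no separate check. The term is the same for all of those 4, so their split by group on the first component remains. The set was defined from the same counts, so the p-values of this fit leave out the uncertainty of that choice, and its counts moved more when a library was left out. There were 6 without NT control replicate 1, 9 without NT control replicate 3, 9 without IKZF1-ko replicate 2 and 8 without IKZF1-ko replicate 3. Leaving out either of the pair that stood apart gives no separate check, since the term then absorbs the other one and the group effect rests on the 4 libraries alone.

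**Figure D2:**
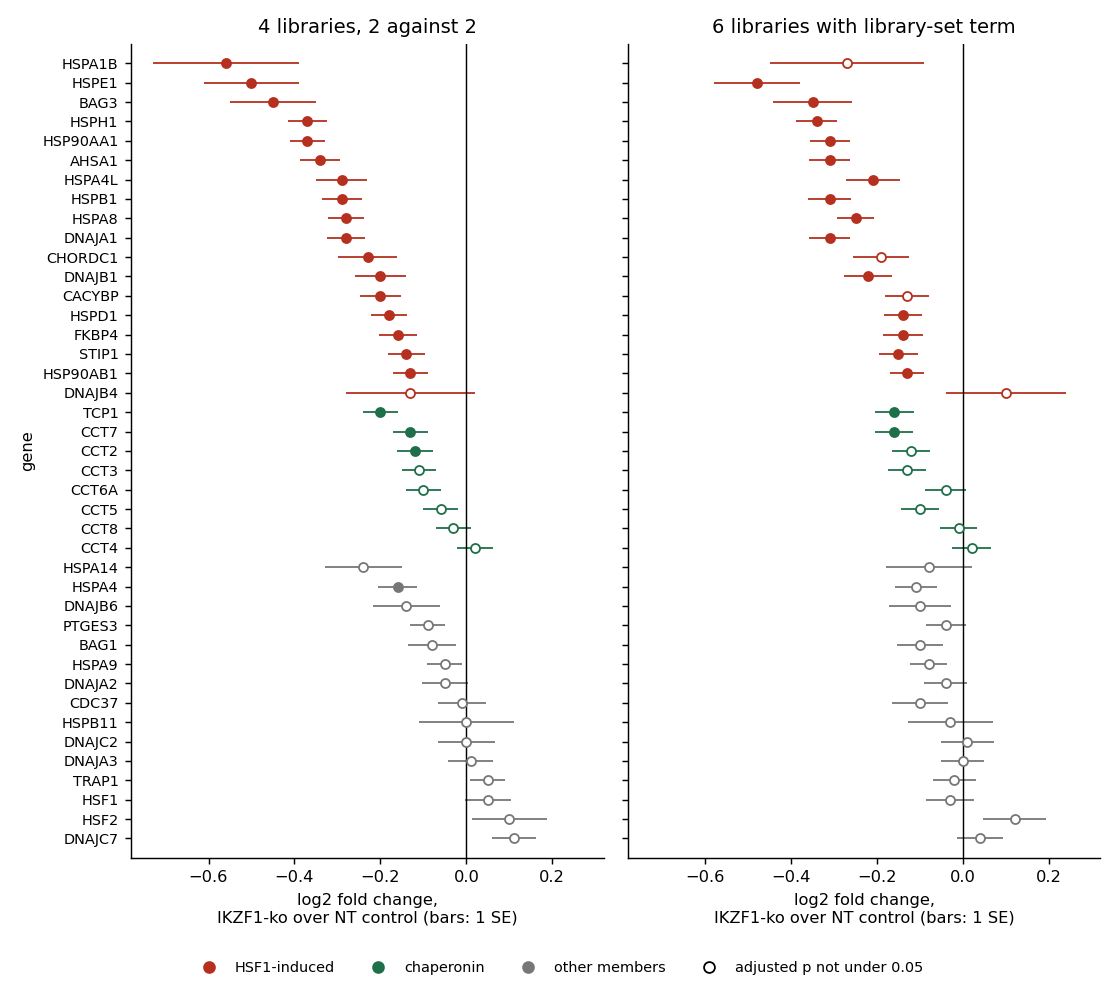
Log2 fold change (x axis, IKZF1-ko over NT control) of 41 tested genes (y axis) in the 4 libraries and in all 6 with the library-set term, with bars of 1 SE from edgeR, colors for the 3 lists, and open points where the adjusted p was not under 0.05. HSPB7, at 1.82 and 1.74, is left out of the plot to keep the scale. Most red points lie left of most green and grey points in both panels, but DNAJB4 is at 0.10 with the library-set term.

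Among the cytosolic HSP70 genes, HSPA8 (chromosome 11, 123057489 to 123063230, GRCh38) was at 1693, 1861 and 1932 CPM in IKZF1-ko replicates 1, 2 and 3, against 2245, 1938 and 2348 CPM in NT control replicates 1, 2 and 3. All IKZF1-ko libraries lay below all NT control libraries, although IKZF1-ko replicate 3 and NT control replicate 2 were close. The log2 fold change was -0.28 (SE 0.041, edgeR adjusted p = 1.65e-05) in the 4 libraries and -0.25 (SE 0.12, unadjusted p = 0.0842) in all 6. HSPA1B was at 5.81, 5.24 and 5.08 CPM in IKZF1-ko and 7.46, 4.43 and 7.78 CPM in NT control. It fell in the 4 libraries (log2 fold change -0.56, SE 0.17, adjusted p = 0.0265) but the groups overlapped over 6. The call was lost in DESeq2, in thinned counts (edgeR adjusted p = 0.0618) and without any 1 of the 4 libraries. HSPA4L, an HSP110 relative, fell by 0.29 on the log2 scale and HSPA4 by 0.16 in the 4 libraries. HSPH1, the inducible HSP110 that acts as nucleotide exchange factor of HSP70, was at 111, 168 and 172 CPM in IKZF1-ko and 220.0, 134 and 220.0 CPM in NT control. Both low NT control and low IKZF1-ko values came from the libraries that stood apart, and the 4 other libraries did not overlap (log2 fold change -0.37, SE 0.045, adjusted p = 5.11e-07). HSPA14, which works at the ribosome, had a log2 fold change of -0.24 with an adjusted p of 0.0776 in the 4 libraries. It shares exons with a second HSPA14 gene model on its strand.

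Of 9 HSP90 and cochaperone genes, 7 fell and 0 rose in the 4 libraries, where 7.10% of all genes were called lower. With the library-set term 5 of 9 fell, in all 6 libraries on group alone 0 did, and HSP90AB1, CHORDC1, CACYBP, FKBP4 and STIP1 each lost the call in at least 1 leave-one-out fit of the 4. HSP90AA1 (chromosome 14, 102080738 to 102139699) was at 869, 1479.8 and 1445 CPM in IKZF1-ko and 1862, 987 and 1926 CPM in NT control. The lowest and the second lowest library were those that stood apart, and NT control replicate 2 was under both IKZF1-ko replicates 2 and 3. The log2 fold change was -0.37 (SE 0.040, adjusted p = 8.03e-08) in the 4 libraries and -0.33 (SE 0.31, unadjusted p = 0.324) in all 6. HSP90AB1 changed less, at 3809, 4350.1 and 4319 CPM in IKZF1-ko and 4732, 4214 and 4749.6 CPM in NT control (log2 fold change -0.13, adjusted p = 0.0261 in the 4 libraries). AHSA1, which stimulates the HSP90 ATPase, was at 102, 144 and 143 CPM in IKZF1-ko and 183, 120.0 and 179.7 CPM in NT control. It fell by 0.34 on the log2 scale in the 4 libraries, the second largest fall of this group. CHORDC1 (-0.23), CACYBP (-0.20), FKBP4 (-0.16) and STIP1 (-0.14), which links HSP70 to HSP90, also fell there. PTGES3, the p23 cochaperone, had a log2 fold change of -0.09 (adjusted p = 0.146) and CDC37, which brings kinases to HSP90, of -0.01 (adjusted p = 0.941).

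Of 8 J-domain genes, 2 fell in the 4 libraries, DNAJA1 and DNAJB1, both cytosolic partners of HSP70, against 7.10% of all genes. DNAJA1 was at 112, 225 and 213 CPM in IKZF1-ko and 265, 144 and 267 CPM in NT control (log2 fold change -0.28, SE 0.045, adjusted p = 4.42e-05 in the 4 libraries). DNAJB1, the classic heat-inducible HSP40, was at 56.4, 75.6 and 81.6 CPM in IKZF1-ko and 93.3, 67.0 and 87.5 CPM in NT control (log2 fold change -0.20, SE 0.059, adjusted p = 0.0189 in the 4 libraries, with no call in DESeq2 or when either NT control replicate 1 or IKZF1-ko replicate 2 was left out). In both genes the libraries overlapped over 6 and not over 4. DNAJA2, a further cytosolic partner of HSP70 (-0.05), DNAJA3 (0.01), DNAJB6 (-0.14), DNAJC2 (-0.00) and DNAJC7 (0.11) did not pass the test in the 4 libraries. DNAJB4 was at 17.9, 9.44 and 7.62 CPM in IKZF1-ko and 9.75, 13.3 and 8.91 CPM in NT control. Unlike most other HSF1-induced genes it was highest in the 2 libraries that stood apart, and its log2 fold change was -0.13 in the 4 libraries and 0.13 in all 6.

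Of the BAG genes, BAG3, a heat-inducible HSP70 cochaperone that sends clients to autophagy, was at 21.5, 16.3 and 16.5 CPM in IKZF1-ko and 22.9, 24.3 and 22.0 CPM in NT control. The groups did not overlap, and the highest IKZF1-ko library was the one that stood apart. It fell by 0.45 on the log2 scale in the 4 libraries (SE 0.10, adjusted p = 0.00287) and had -0.35 in all 6 (SE 0.15, unadjusted p = 0.0531). BAG1, its relative with an ubiquitin-like domain, had a log2 fold change of -0.08 (adjusted p = 0.37 in the 4 libraries).

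HSPB1 and HSPB7, both small heat shock protein genes, moved in opposite directions. HSPB1, also known as HSP27, was at 266, 256 and 246 CPM in IKZF1-ko and 322, 343 and 289.9 CPM in NT control, with no overlap, and neither library that stood apart was low. Its log2 fold change was -0.29 (SE 0.047, adjusted p = 7.47e-05) in the 4 libraries and -0.31 (SE 0.10, unadjusted p = 0.0201) in all 6. HSPB7 (chromosome 1, 16014028 to 16019594), known from heart and skeletal muscle, had 233, 173 and 161 counts in IKZF1-ko and 34, 73 and 28 counts in NT control, that is 15.5, 9.44 and 9.51 CPM in IKZF1-ko and 2.88, 4.98 and 2.45 CPM in NT control. Every IKZF1-ko library lay above every NT control library. The log2 fold change was 1.82 (SE 0.20, adjusted p = 7.32e-08) in the 4 libraries, 1.74 with the library-set term and 1.73 (SE 0.35, unadjusted p = 0.00175) in all 6, and HSPB7 was called in each leave-one-out fit of the first 2. At a mean of 7.05 TPM it remained among the least abundant genes of the set. HSPB11, whose product is a subunit of the intraflagellar transport machinery despite its name, had a log2 fold change of -0.00.

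Without overlap between the groups over all 6 libraries, HSPA8, HSPB1 and BAG3 were the 3 of 42 tested genes with every IKZF1-ko library below every NT control library, against 4.05% of all tested genes, and HSPB7 the 1 with every IKZF1-ko library above, against 5.30%. In the 4 libraries, 30 of 42 genes lay wholly below, 17 of them HSF1-induced and 7 chaperonin subunits, against 27.0% of all genes, and 4 lay wholly above, against 27.7%. TRAP1, DNAJC7, HSF2 and HSPB7 were those 4.

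**Figure D3:**
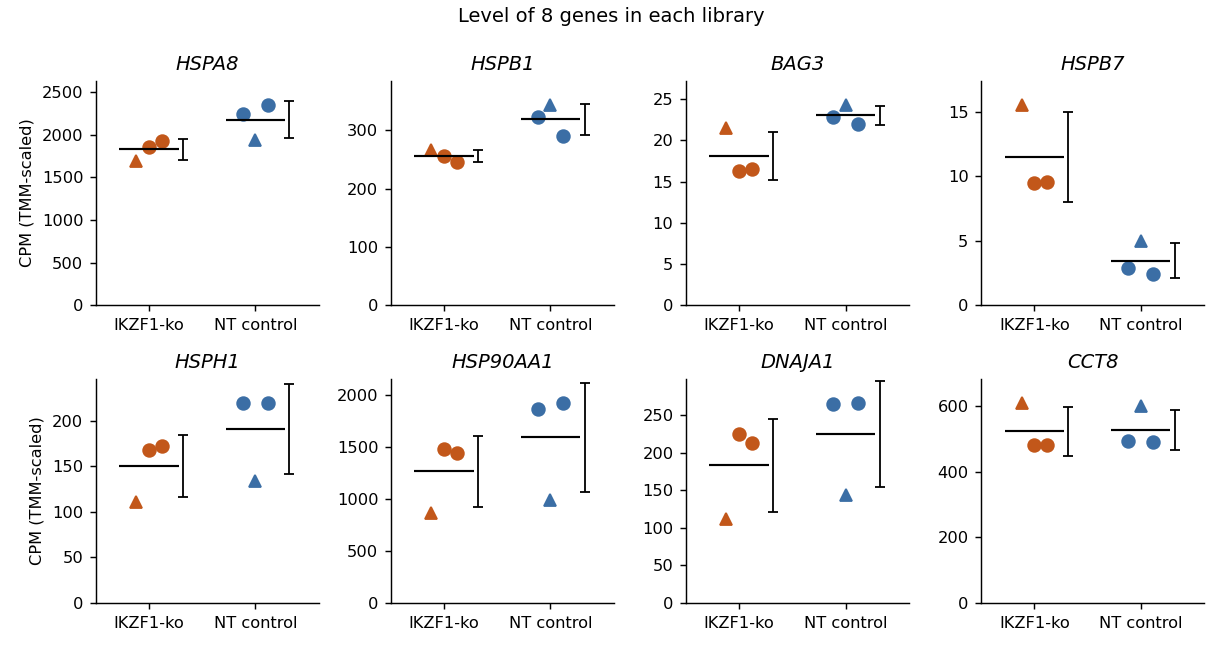
TMM-scaled CPM (y axis, from 0) of 8 genes in the IKZF1-ko and NT control libraries, with the mean as a line and the SD as a bar (n = 3 each). Triangles are IKZF1-ko replicate 1 and NT control replicate 2, and circles the other 4 libraries. HSPA8, HSPB1, BAG3 and HSPB7 do not overlap between groups, HSPH1, HSP90AA1 and DNAJA1 do so only through the triangles, and CCT8 is nearly the same in both groups, with both triangles high.

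Of 5 mitochondrial chaperone genes, 2 fell in the 4 libraries, HSPD1 and HSPE1, against 7.10% of all genes. Both are on the HSF1-induced list. HSPD1 was at 800.2, 940.4 and 964 CPM in IKZF1-ko and 1054, 842 and 1103 CPM in NT control, and fell by 0.18 on the log2 scale in the 4 libraries (SE 0.041, adjusted p = 0.00247). HSPE1, which shares a promoter region with it, was at 10.2, 14.0 and 14.6 CPM in IKZF1-ko and 21.7, 13.6 and 18.7 CPM in NT control (log2 fold change -0.50, SE 0.11, adjusted p = 0.00267 in the 4 libraries). Its call was lost without NT control replicate 1. HSPA9, the mitochondrial HSP70 (-0.05, adjusted p = 0.431), TRAP1, the mitochondrial HSP90 (0.05, adjusted p = 0.436), and DNAJA3 (0.01, adjusted p = 0.923) did not pass the test in the 4 libraries. HSPA1B, HSP90AB1, HSPD1, HSPE1 and HSP90AA1 were the 5 tested HSF1-induced genes with more than 10% of their 50-base windows also in another gene. Without these, 12 of 13 HSF1-induced genes fell in the 4 libraries, against 7.10% of all genes. With the library-set term 10 of 13 fell, against 6.62% of all genes.

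Chaperonin subunits changed little and unevenly. TCP1 was at 324, 365 and 374 CPM in IKZF1-ko and 425, 348 and 421 CPM in NT control, and fell by 0.20 on the log2 scale in the 4 libraries (SE 0.041, adjusted p = 0.00117). CCT7 fell by 0.13 (395, 547 and 523 CPM in IKZF1-ko and 581, 459 and 586 CPM in NT control, adjusted p = 0.034), and CCT2 by 0.12 with an adjusted p of 0.04995. With upper-quartile scaling or DESeq2, TCP1 alone was called, and neither CCT2 nor CCT7 was called without NT control replicate 1, NT control replicate 3 or IKZF1-ko replicate 3. CCT3 (-0.11), CCT6A (-0.10), CCT5 (-0.06), CCT8 (-0.03) and CCT4 (0.02) did not pass the test. Subunits of the same ring also differed in how they followed the library sets. CCT8 was at 610.3 and 599 CPM in IKZF1-ko replicate 1 and NT control replicate 2, against 480.2 and 480.4 CPM in IKZF1-ko replicates 2 and 3 and 493 and 491 CPM in NT control replicates 1 and 3. CCT5 ran the other way, at 511 and 577 CPM in the pair that stood apart, against 762 and 724 CPM in IKZF1-ko replicates 2 and 3 and 765 and 780.1 CPM in NT control replicates 1 and 3. CCT4 stayed between 399 and 428 CPM in every library.

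HSF1-induced genes and chaperonin subunits were then set side by side. The median log2 fold change was -0.28 for the 18 HSF1-induced genes and -0.10 for the 8 chaperonin subunits in the 4 libraries, a difference of -0.18, where all 12951 genes had a median of 0.00. It was -0.23 and -0.10 in all 6 libraries, and -0.23 and -0.11 with the library-set term. Per library, the mean log2 level of the HSF1-induced genes, relative to the 6 libraries, was -0.26, -0.04 and -0.05 in IKZF1-ko replicates 1, 2 and 3, and 0.25, -0.14 and 0.24 in NT control replicates 1, 2 and 3. For the chaperonin subunits it was -0.20, 0.04 and 0.03 in IKZF1-ko, and 0.11, -0.12 and 0.14 in NT control. In both lists NT control replicate 2 was below IKZF1-ko replicates 2 and 3. The first mean minus the second was -0.06, -0.08 and -0.07 in IKZF1-ko, and 0.14, -0.02 and 0.10 in NT control. On this scale all IKZF1-ko libraries were below all NT control libraries, and IKZF1-ko replicate 1 lay with the other IKZF1-ko libraries. NT control replicate 2, at -0.02, lay nearer to the IKZF1-ko libraries than to the other NT control libraries. The difference of the means thus does not remove the library split. Genes of a list are not replicates, so no test was made of this difference. The lists were made with results of these libraries known, so the separation is not independent evidence.

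**Figure D4:**
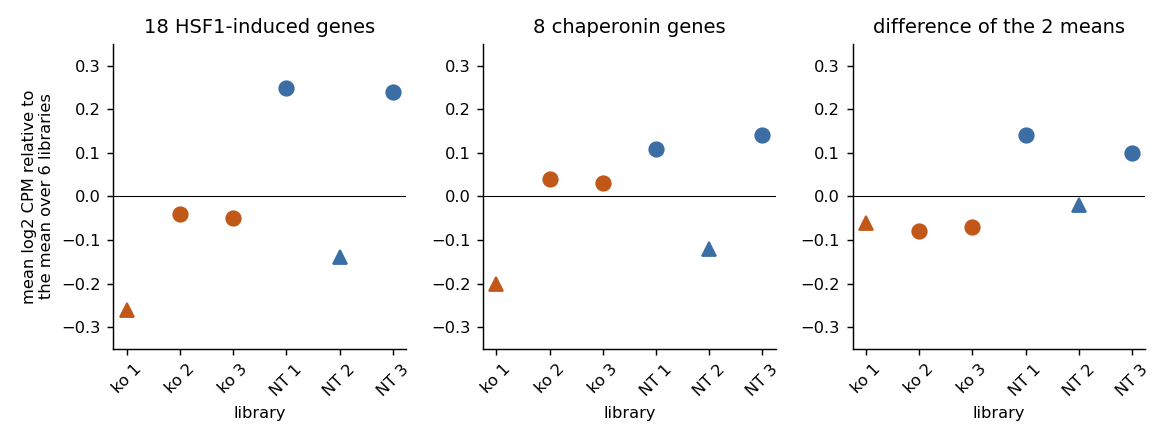
Mean log2 CPM relative to the 6 libraries (y axis) of 18 HSF1-induced genes, 8 chaperonin genes and their difference, in each IKZF1-ko (ko, orange) and NT control (NT, blue) library. Triangles are the libraries that stood apart. In the difference, the IKZF1-ko libraries lie between -0.08 and -0.06 and the NT control libraries between -0.02 and 0.14.

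The single pair that stood apart gives a difference without a test. IKZF1-ko replicate 1 was below NT control replicate 2 for 16 of 18 HSF1-induced genes, 5 of 8 chaperonin subunits and 9 of 16 remaining genes, against 49.9% of all 13028 genes. In that pair the log2 difference was -0.41 for HSPE1, uncertain for its shared exons, and -0.36 for HSPB1 and DNAJA1. It was -0.27 for HSPH1, -0.20 for HSPA8 and 1.62 for HSPB7. The 16 also hold differences near 0, such as -0.01 for CACYBP, -0.04 for HSPA4L and -0.07 for HSPD1. HSPA1B (0.38) and DNAJB4 (0.43) were the HSF1-induced genes above NT control there.

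The heat shock factor genes themselves did not pass the test in any of the 3 edgeR fits. HSF1 was at 122, 124 and 121 CPM in IKZF1-ko and 123, 138 and 114 CPM in NT control, and HSF2, a related factor, at 38.8, 29.7 and 32.7 CPM in IKZF1-ko and 28.2, 34.9 and 29.7 CPM in NT control. The groups overlapped in both. The log2 fold change in the 4 libraries was 0.05 (SE 0.053) for HSF1 and 0.10 (SE 0.087) for HSF2. HSF1 is regulated mainly through its protein, which counts do not show.

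Other genes of the network were read from 2 further lists. Of 58 other chaperones and cochaperones, 49 were tested in the 4 libraries, where 7 fell (14.3%, against 7.10% of all genes) and 1 rose (against 7.64% of all genes), with a median log2 fold change of -0.07. HSPBP1, an exchange factor of HSP70, was at 34.3, 51.9 and 49.8 CPM in IKZF1-ko and 63.8, 50.9 and 62.0 CPM in NT control (log2 fold change -0.31, SE 0.066, adjusted p = 0.00154). PPID, an HSP90 cochaperone with prolyl isomerase activity, fell by 0.32 there, but with the library-set term it had -0.21 and an adjusted p of 0.0616. NUDC (-0.19, adjusted p = 0.00461) and GRPEL1, the exchange factor of mitochondrial HSP70 (-0.18, adjusted p = 0.00881), also fell. The gene that rose was the mitochondrial protease gene LONP1 (0.15, adjusted p = 0.0228), named after its value was seen, with 0.01 and an adjusted p of 0.962 under the library-set term. Of 5 further genes that HSF1 can induce, 1 fell and 1 rose. UBB, a polyubiquitin gene, was at 399, 463 and 444 CPM in IKZF1-ko and 555, 524 and 526 CPM in NT control (log2 fold change -0.25, adjusted p = 8.09e-05). SERPINH1, the collagen chaperone of the endoplasmic reticulum, was at 86.6, 79.1 and 80.7 CPM in IKZF1-ko and 50.4, 74.5 and 47.9 CPM in NT control (log2 fold change 0.70, SE 0.064, adjusted p = 2.85e-09). Both kept their groups apart over all 6 libraries.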

How the data were processed

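Polyadenylated RNA was sequenced from libraries of a stranded kit, per the labels' protocols. Each column of the deposited table holds 1 library's read counts per gene, unscaled. The submitters' processing notes list Trimmomatic, STAR and GRCh38 with no version. Which counter, strand setting and annotation were used is not given in the sources used here. Genes that share exons are therefore uncertain: 9 members on the same strand and 13 on the opposite strand only. Of the identifiers, 57895 were in GENCODE release 29, and 57392 had a symbol in the name table. Library totals ranged from 11300519 to 18214328 counts, and 0 columns were of other samples.

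The test was edgeR 4.0.16 (R 4.3.3), quasi-likelihood, two-sided, with TMM scaling, filterByExpr by group and Benjamini-Hochberg adjustment over all genes tested, threshold 0.05. It was fitted on group alone in 6 libraries, on group alone in 4, and in 6 with a term for the sign of principal component 1. Log2 levels used a prior count of 2. Standard errors are the fold change divided by the root of F. Members, lists, libraries and fits were chosen with earlier results of these data known, and all 43 members are named. Of other lists, up to 6 genes called in the 4 libraries with the lowest adjusted p are named.

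Alternatives were RLE, upper-quartile and total-count scaling, no filter or at least 1 CPM, DESeq2 1.42.0, limma-voom (limma 3.58.1), thinned counts, each library left out, a replicate block and 1 surrogate variable (sva 3.50.0). On simulated counts with 200 changed genes, the 4-library fit of 12783 genes recovered 46% at 1.25-fold and 74% at 1.5-fold, and 8 of its 158 calls were false. On group alone in 6 libraries, with 12840 genes, it was 0% and 2%, and 4 of 65 calls were false. Whether these shares apply to the calls in the measured libraries was not tested. Figures used matplotlib 3.10.9.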

Additional observations from a re-analysis of the deposited data

How the results depend on the processing

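On group alone in 6 libraries, members called stayed at 0 under the 3 other scalings, both filters, limma-voom, thinned counts, the replicate block and each library left out (lowest 0, highest 0). DESeq2 called 1 member higher, with 58 genes higher and 13 lower in all. No filter on low counts gave 8 genes higher and limma-voom 1. With 1 surrogate variable, 8 members, all of them HSF1-induced, were lower and 1 higher, with 460 genes lower and 570 higher. The replicate numbers did not pair the libraries (correlations of deviations -0.655, -0.689 and 0.588 for replicates 1, 2 and 3), and with the replicate block 0 genes were called.

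In the 4 libraries, DESeq2 called 375 genes lower and 450 higher. HSPA1B, HSPA4, DNAJB1, CHORDC1, STIP1, CCT2 and CCT7 were the members whose lower call was lost there. Chaperonin subunits called lower were 1 with upper-quartile scaling and 1 with DESeq2. The HSF1-induced genes HSP90AB1 (edgeR adjusted p = 0.0584) and STIP1 (0.0506) also lost the call with upper-quartile scaling. Under that scaling HSPD1, HSP90AB1 and FKBP4, also HSF1-induced, lost it with the library-set term. Leaving out each library gave 12 to 19 members lower, 10 to 15 of them HSF1-induced, 1 to 3 chaperonin subunits, 608 to 706 genes lower and 731 to 815 higher. With the library-set term, DESeq2 called 533 genes higher, and leaving out each library gave 6 to 21 members lower, 6 to 17 HSF1-induced, 0 to 3 chaperonin subunits, 347 to 923 genes lower and 464 to 1020 higher. The fits without IKZF1-ko replicate 1 or NT control replicate 2 repeat the 4-library fit and are no separate check. The cause of these moves was not tested, beyond fewer libraries per fit. The median difference between HSF1-induced and chaperonin genes stayed negative in every alternative, from -0.18 to -0.05. No member called in an alternative or in the fit it was compared with changed sign. Counting the 3-unit motif in place of the 2-unit motifs gave 7 promoters of the set in place of 19, 6 of HSF1-induced genes in place of 14 and 0 of chaperonin subunits in place of 3. Removing the 5 HSF1-induced genes with over 10% shared windows, chosen after the data were seen, left 12 called lower in the 4 libraries, 10 with the library-set term and 0 on group alone. Removing HSPE1, HSPA1B and HSPD1 alone, which leaves HSP90AB1 and HSP90AA1 in, left 14, 12 and 0. Over all genes tested, 7.10%, 6.62% and 0% were called lower in these fits. HSPA1A had at most 3 counts in any library and could not be tested.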
